A study of Homo sapiens with 6 samples.

Results

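DDIT3 and 9 other genes of the ATF4 arm of the integrated stress response were examined by bulk RNA sequencing in EndoC-βH1, a β cell line of human origin. The 10 genes were DDIT3, ATF3, ATF4, ATF5, CHAC1, ASNS, PPP1R15A, SESN2, DDIT4 and CEBPB, out of 60671 gene identifiers in each sample. Each was matched by its symbol to 1 identifier, and all 10 were among the 17649 genes that passed the filter on low counts. The set was selected on the CPM of DDIT3 in these same samples, which was lower with AZD7762, with the question whether the other genes shared that fall. The values of the 10 genes are therefore a description, and no p-value is given for them. Calls and intervals given below for these genes describe the fit over all genes and are no test of the set.

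The study compared 2 groups of 3 samples. Wild-type EndoC-βH1 cells received either the vehicle DMSO or 1 µM AZD7762, an inhibitor of the checkpoint kinases CHEK1 and CHEK2, and DMSO or compound was present throughout a glucose-stimulated insulin secretion experiment. The cells of both groups were kept for 1 h at 0.5 mM glucose and then for 1 h at either 0.5 or 20 mM glucose, and the labels do not say which concentration each library had. Nothing in the labels says that replicates came from separate cultures, and the study's methods speak of independent replicates for cell culture work in general without saying what they were here. The p-values measure the spread between these samples, which may be technical. In bulk RNA, fewer cells of a type and less RNA per cell cannot be told apart.

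The integrated stress response is the route by which cells slow protein synthesis under stress. Kinases that sense misfolded protein in the endoplasmic reticulum, lack of amino acids, lack of haem or double-stranded RNA phosphorylate the translation factor eIF2, which lowers translation of most mRNAs and favours that of ATF4. ATF4 is a bZIP transcription factor that switches on genes for amino acid supply and for other transcription factors, among them DDIT3, which encodes CHOP, a factor associated with cell death under prolonged stress. β cells make large amounts of proinsulin in the endoplasmic reticulum, and the kinase PERK, encoded by EIF2AK3, is required for their health.

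Short stretches upstream of the start sites show which binding letters of the stress-related bZIP factors occur near the 10 genes. They were taken from RefSeq windows of 300 bases on GRCh38.p14, from 250 bases before to 50 bases after each start, which were found for 10 of the 10 genes in 17 windows. The C/EBP-ATF response element that ATF4 can bind was searched as TGATGNAA on both strands and was present in ATF3, CHAC1 and ASNS. The AP-1 site, searched as TGANTCA, was present in DDIT3 and ATF5, and the cAMP response element, searched as TGACGTCA, in PPP1R15A. The capitals mark the match, written along the strand of the gene.
DDIT3, AP-1, chr12:57520729-57520764, minus strand: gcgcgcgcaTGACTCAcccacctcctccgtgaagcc
ATF5, AP-1, chr19:49928698-49928744, plus strand: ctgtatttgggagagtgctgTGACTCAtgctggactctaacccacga
ATF3, C/EBP-ATF, chr1:212565196-212565243, plus strand: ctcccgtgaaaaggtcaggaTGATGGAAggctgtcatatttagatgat
ASNS, C/EBP-ATF, chr7:97872449-97872496, minus strand: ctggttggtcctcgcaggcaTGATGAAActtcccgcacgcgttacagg
CHAC1, C/EBP-ATF, chr15:40953242-40953289, plus strand: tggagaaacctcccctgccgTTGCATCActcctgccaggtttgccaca
PPP1R15A, cAMP element, chr19:48872343-48872390, plus strand: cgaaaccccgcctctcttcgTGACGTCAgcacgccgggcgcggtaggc
The match began 241 bases before the start in DDIT3, 68 bases before it in ASNS and 58 bases before it in PPP1R15A. Among all 27305 genes with such a window, 4.46% held the C/EBP-ATF letters, 9.37% the AP-1 letters and 2.25% the cAMP element. The endoplasmic reticulum stress element, searched by its consensus on both strands, was in 0 of the 10 genes and in 0.0916% of all genes. A match is a description of the letters and not a measured binding site. Bases outside the windows were not searched, so a gene without a match may hold the letters further away.

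The libraries held between 20486391 and 29402440 counts on genes, and values are given as normalised CPM, which are counts scaled to a common library size with TMM factors. A count of 3 corresponded to at most 0.146 CPM, a limit that covers counting error only. Of 12 β cell markers, 12 had more than 3 counts in every sample, and their summed level was between 7993 and 9088 CPM with DMSO and between 8514 and 8956 CPM with AZD7762. CHGA made up the largest part, with means of 3601 CPM with DMSO and 3890 CPM with AZD7762. Single markers went both ways, with means from 1384 to 1179 CPM for NEUROD1 and from 204 to 227 CPM for NKX6-1, and 0 were called. Of 6 markers of other islet cells, 4 exceeded 3 counts in every sample, with summed levels from 222 to 253 CPM with DMSO and from 261 to 287 CPM with AZD7762, mostly from SST. The exocrine and duct markers summed to between 45.4 and 56.4 CPM, with PRSS1 and CELA3A at 0 in every sample, and the 6 stromal, endothelial and immune markers matched summed to between 11.8 and 17.8 CPM. The part of these markers in the results was not tested.

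DDIT3 (ENSG00000175197, minus strand of chromosome 12 on GRCh37, 57910371 to 57915520) was at 29.0, 28.9 and 31.0 CPM in DMSO replicates 1, 2 and 3 and at 13.95, 14.7 and 15.9 CPM in AZD7762 replicates 1, 2 and 3. Each AZD7762 sample lay far below each DMSO sample, and the replicates of a group stayed close together. The means were 29.6 ± 1.2 and 14.8 ± 0.957 CPM (SD, n = 3 in each group), a change of -50.0%. The log2 fold change was -0.999 (standard error 0.0798), with a 95% interval from -1.17 to -0.83. Among the 17649 genes tested it was the 29th lowest log2 fold change, and the 10th lowest of the 62 genes called lower. Gene positions are on GRCh37 throughout, unlike those of the promoter stretches. The counts behind these values were between 647 and 857 with DMSO and between 309 and 351 with AZD7762.
Part of DDIT3 is covered by neighbouring genes. Of its exon length, 31.6% overlaps MARS1 or MBD6 on the opposite strand and 8.03% a gene on the same strand that had 0 counts in every sample. Whether reads were counted by strand is not given in the sources used here, so it is not known how reads in the overlap were assigned. MARS1, the cytosolic methionyl-tRNA synthetase, was at 224 ± 6.73 CPM in the DMSO group and at 237 ± 8.48 CPM in the AZD7762 group. The ratio of DDIT3 to MARS1 within a sample was between 0.127 and 0.143 with DMSO and between 0.0583 and 0.0698 with AZD7762, with no overlap between the groups. With DDIT3 selected for its fall and the MARS1 groups overlapping, this separation follows from the selection. It does not show how reads in the overlap were assigned.

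**Figure D1:**
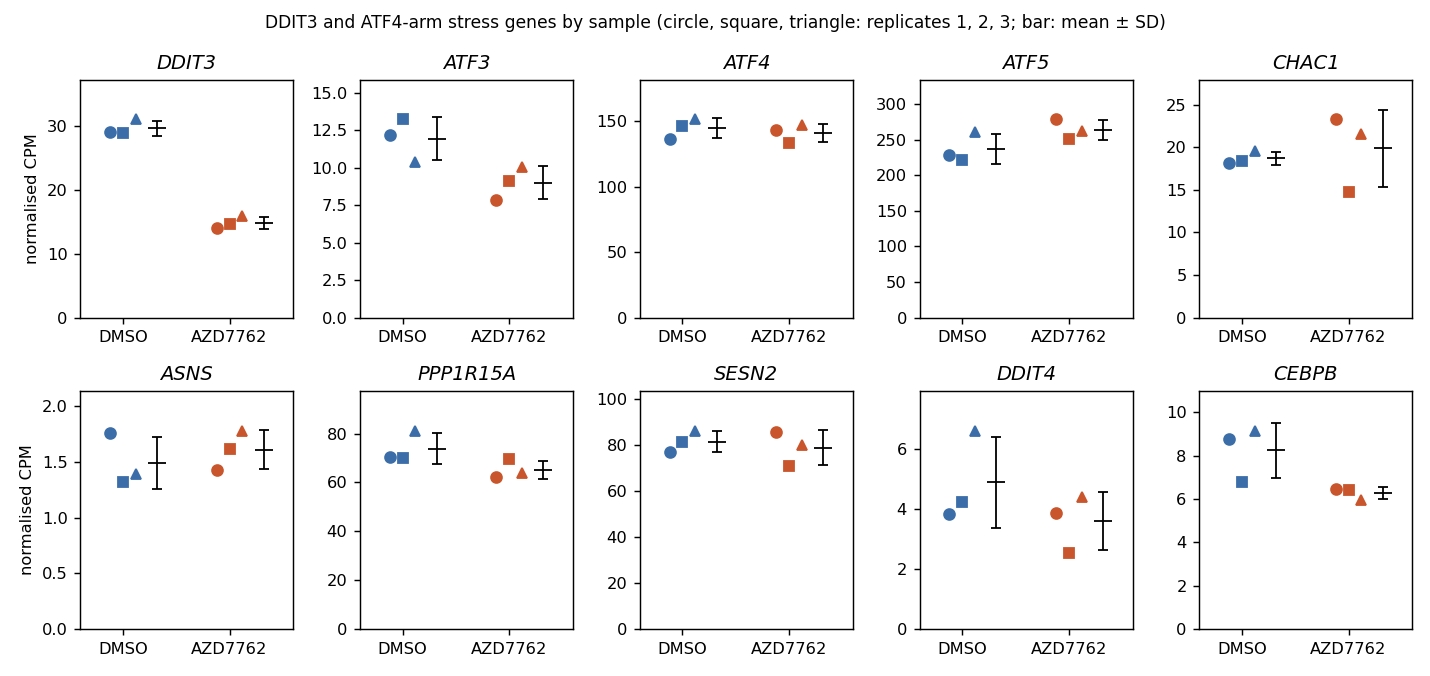
Normalised CPM of the 10 genes in each sample, with the y axis of each panel starting at 0. Circles, squares and triangles are replicates 1, 2 and 3, blue is DMSO and orange is AZD7762, and the black bar is the mean ± SD of 3 samples. DDIT3 goes from 29.6 to 14.8 CPM with a wide gap, whereas the groups of ATF4, ATF5, CHAC1, ASNS, SESN2 and DDIT4 overlap.

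The other transcription factors of the set had log2 fold changes closer to 0. ATF4 (ENSG00000128272, chromosome 22, 39915700 to 39918688), the central factor of the pathway, was at 137, 146 and 151 CPM with DMSO and at 143, 134 and 147 CPM with AZD7762. The groups overlapped. The means were 145 ± 7.53 and 141 ± 6.89 CPM, and the log2 fold change was -0.03 (standard error 0.0629, 95% interval from -0.17 to 0.10). Since ATF4 is controlled largely through translation of its mRNA, this level says nothing about ATF4 protein.
Within each sample, DDIT3 relative to ATF4 was 0.212, 0.198 and 0.205 with DMSO and 0.0976, 0.11 and 0.108 with AZD7762, as a ratio of CPM. Its mean went from 0.205 ± 0.00724 to 0.105 ± 0.00663. The ratio was lower in each AZD7762 sample than in any DMSO sample. With DDIT3 selected for its fall and the ATF4 groups overlapping, this separation follows from the selection and adds no support. For comparison, the ratio of CHAC1 to ATF4 was 0.130 ± 0.00372 with DMSO and 0.140 ± 0.0268 with AZD7762.

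**Figure D2:**
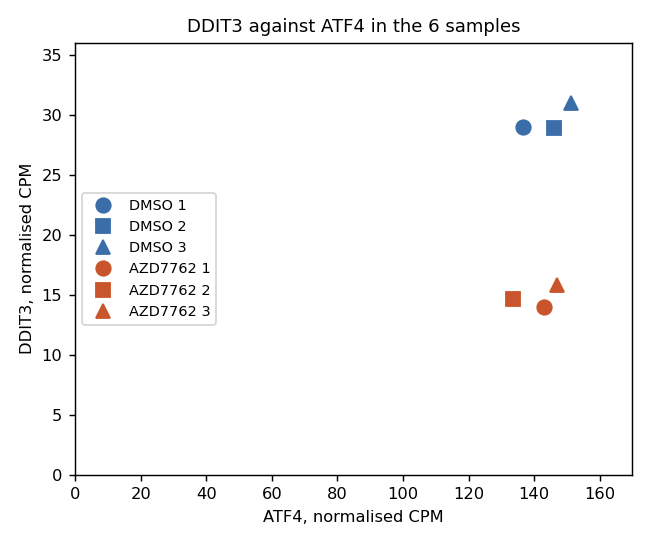
DDIT3 against ATF4 in the 6 samples, both as normalised CPM on axes that start at 0, with DMSO in blue, AZD7762 in orange and the symbol giving the replicate. The groups separate along the DDIT3 axis and overlap along the ATF4 axis, where the samples lie between 134 and 151 CPM.

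ATF5, a bZIP factor whose mRNA is translated under the same control as that of ATF4, was the most abundant of the 10 per length. Its samples were at 228, 222 and 262 CPM with DMSO and at 279, 251 and 262 CPM with AZD7762. DMSO replicate 3 lay among the AZD7762 samples. The log2 fold change was 0.16 (standard error 0.0720, 95% interval from -0.000297 to 0.31), opposite in sign to that of DDIT3. Of its exon length, 19.5% overlaps IL4I1 or NUP62 on the opposite strand.
ATF3 (ENSG00000162772, chromosome 1, 212738676 to 212794119), a bZIP repressor induced early in many stresses, was at 12.2, 13.2 and 10.4 CPM with DMSO and at 7.83, 9.12 and 10.0 CPM with AZD7762. The groups did not overlap, but DMSO replicate 3 and AZD7762 replicate 3 nearly touched. The log2 fold change was -0.42 (standard error 0.121, 95% interval from -0.68 to -0.16), and the gene did not pass the threshold over all genes. Without a filter on low counts it did, at the same log2 fold change of -0.42.
CEBPB (ENSG00000172216, chromosome 20, 48807367 to 48809205), a C/EBP factor that forms dimers with CHOP and ATF4, was at 8.77, 6.80 and 9.15 CPM with DMSO and at 6.48, 6.42 and 5.96 CPM with AZD7762. DMSO replicate 2 lay just above the AZD7762 samples. The log2 fold change was -0.39 (standard error 0.129, 95% interval from -0.66 to -0.11), below the threshold for a call. An antisense gene, CEBPB-AS1, covers 12.6% of its exon length on the opposite strand.

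The genes that act downstream of these factors had log2 fold changes of both signs. PPP1R15A, which encodes GADD34, the phosphatase subunit that ends the response by dephosphorylating eIF2, was at 70.6, 69.8 and 81.1 CPM with DMSO and at 62.4, 69.4 and 63.7 CPM with AZD7762. The groups did not overlap, though DMSO replicate 2 and AZD7762 replicate 2 differed little. The log2 fold change was -0.18 (standard error 0.0732, 95% interval from -0.34 to -0.02), and the gene was not called.
CHAC1, a glutathione-degrading enzyme that is a sensitive target of ATF4 and CHOP, was at 18.2, 18.4 and 19.6 CPM with DMSO and at 23.3, 14.8 and 21.6 CPM with AZD7762. The AZD7762 samples spread to both sides of the DMSO samples. The log2 fold change was 0.09 (standard error 0.134), with an interval from -0.20 to 0.39. Without AZD7762 replicate 2, the lowest sample, it was 0.26.
SESN2, a sestrin that restrains mTORC1 when amino acids are short, was at 76.9, 80.9 and 86.0 CPM with DMSO and at 85.4, 70.5 and 80.01 CPM with AZD7762. The groups overlapped, with a log2 fold change of -0.05 (standard error 0.0757, 95% interval from -0.21 to 0.12).
DDIT4, also called REDD1, another inhibitor of mTORC1, was at 3.83, 4.23 and 6.61 CPM with DMSO and at 3.86, 2.52 and 4.41 CPM with AZD7762. The groups overlapped and the standard error was the largest of the set, with a log2 fold change of -0.41 (standard error 0.228, 95% interval from -0.91 to 0.08). This value rested on DMSO replicate 3 and AZD7762 replicate 2, since it was -0.15 without the first and -0.23 without the second.
ASNS, the asparagine synthetase that is a textbook ATF4 target, was barely counted. It was at 1.76, 1.32 and 1.39 CPM with DMSO and at 1.43, 1.62 and 1.78 CPM with AZD7762, from 29 to 52 counts per library, and the log2 fold change was 0.09 (standard error 0.201, 95% interval from -0.34 to 0.53). Of its exon length, 49.3% lies in another annotated gene on the same strand, ENSG00000284707, which is also in the files and had between 1 and 4 counts. HTSeq-count by default leaves out reads that fall on more than 1 gene, and the setting used is not stated, so the level of ASNS is uncertain.

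**Figure D3:**
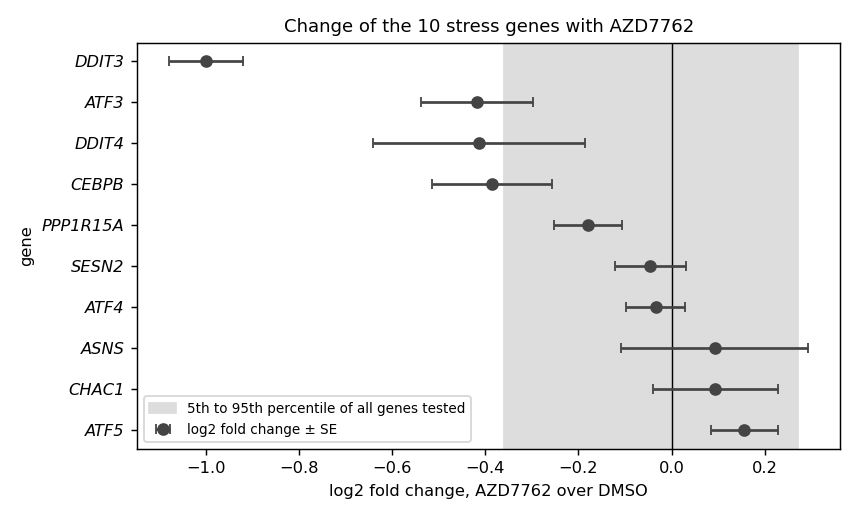
Log2 fold change of AZD7762 over DMSO for each of the 10 genes, with bars of 1 standard error from edgeR's quasi-likelihood fit on 3 samples per group. The grey band spans the 5th to 95th percentile of all genes tested, from -0.36 to 0.27. DDIT3 stands at -0.999, ATF3, DDIT4 and CEBPB lie between -0.42 and -0.39, and the other 6 lie within the band.

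Set side by side, DDIT3 had the lowest log2 fold change of the 10 genes and was the 1 gene of them that was called. Because the set was selected on the fall of DDIT3 in these samples, neither its rank nor its call is support. A call means a Benjamini-Hochberg adjusted p under 0.05 over all genes, from the quasi-likelihood test of edgeR, and 0.708% of all genes tested were called, 0.351% lower and 0.357% higher. Of the 9 others, 6 had a negative log2 fold change and 3 a positive one, where 52.4% of all genes tested were positive. The median of the 9 was -0.05, against 0.00756 over all genes. Leaving out 1 sample gave between 5 and 7 negative values and a median from -0.12, without AZD7762 replicate 1, to -0.00107, without DMSO replicate 3. In 4 of the 10, DDIT3, ATF3, PPP1R15A and CEBPB, all DMSO samples lay above all AZD7762 samples, which was so for 8.25% of all genes, with 6.79% the other way and 15.0% in either direction. Since the set was drawn up on this contrast, nothing is read from these counts. The next lowest value was -0.42, in ATF3. Differences between genes were not tested.
The extremes of the groups fell on different libraries. DMSO replicate 3 had the highest value of its group in 8 of the 10 genes, all but ATF3 and ASNS, and their summed level there was 658 CPM against 586 and 591 CPM in the other DMSO samples. The lowest DMSO value was in replicate 2 for 5 genes and in replicate 1 for 4. In the AZD7762 group the lowest value was in replicate 2 for 5 genes and in replicate 1 for 4, and the highest in replicate 3 for 5 and in replicate 1 for 4. The summed levels there were 626, 574 and 613 CPM, and most of each sum came from ATF5 and ATF4. DMSO replicate 3 was also the library with the fewest counts, and the part of depth in this was not tested. The share of all genes with their highest DMSO value there is not given, so these counts describe the 10 genes only. Without DMSO replicate 3 the log2 fold change of DDIT3 was -0.96.

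Levels between genes were compared as CPM per kilobase of exon, with exon lengths from another annotation release. With DMSO the order was ATF5 at 82.0 ± 7.41, ATF4 at 55.4 ± 2.88, SESN2 at 23.5 ± 1.32, DDIT3 at 22.7 ± 0.905 and PPP1R15A at 21.5 ± 1.85. CHAC1 followed at 9.13 ± 0.355, then CEBPB at 4.48 ± 0.685, ATF3 at 2.99 ± 0.359, DDIT4 at 2.38 ± 0.732 and ASNS at 0.305 ± 0.0480. SESN2, DDIT3 and PPP1R15A overlapped with their neighbours in this order, as did ATF3 and DDIT4. With AZD7762, DDIT3 was at 11.3 ± 0.732 per kilobase, between PPP1R15A at 19.0 ± 1.08 and CHAC1 at 9.70 ± 2.20, whose samples overlapped its own, and no other gene of the set changed its place except PPP1R15A, which took that of DDIT3.

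The 9 other genes of the set differed in how closely they followed DDIT3 over the 6 samples. By Pearson's r of log2 CPM, given as a description over 6 samples that share the split by treatment, ATF3 had an r of 0.82 with DDIT3, CEBPB 0.81, PPP1R15A 0.76, DDIT4 0.59, ATF4 0.34 and SESN2 0.27. CHAC1, ASNS and ATF5 had an r of -0.14, -0.30 and -0.65. Among the 13903 genes whose mean log2 CPM was 1 or more, ATF3 ranked 706th and CEBPB 798th. The 5 genes most like DDIT3 were ANKLE2, BMF, SPRY4, CADM3-AS1 and MXD1, with an r between 0.997 and 0.999. Of these, SPRY4, a feedback inhibitor of receptor tyrosine kinase signalling, and MXD1, a partner of MAX, were called, with log2 fold changes of -0.94 and -0.58. The others had smaller log2 fold changes, -0.13 for ANKLE2, -0.25 for BMF and -0.48 for CADM3-AS1, and were not called.

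The wider pathway was described with 8 lists that hold 104 distinct genes, of which 97 were tested. In edgeR's quasi-likelihood test over all genes, 0 of the 97 were called higher and 1 lower. The shares among all genes tested were 0.357% higher and 0.351% lower. Of the 97, 14 had an unadjusted p under 0.05 (9.68% of all genes did), and the median log2 fold change was 0.02. The log2 fold change was positive in 60.8% of the 97 and in 52.4% of all genes tested, the share to set beside the sign counts below. The sensors and the eIF2 machinery came first. Of 21 genes in that list, 21 were tested and 0 called, 14 had a positive and 7 a negative log2 fold change, and the median was 0.03. The furthest from 0 was EIF2AK3, which encodes PERK, the kinase of this pathway that sits in the endoplasmic reticulum. It was at 31.6, 31.9 and 29.3 CPM with DMSO and at 26.8, 25.6 and 24.7 CPM with AZD7762. Its groups did not overlap, and its log2 fold change of -0.27 ± 0.0721 (SE; edgeR adjusted p = 0.176) did not pass the threshold. Of the alternatives, it passed only with the replicate number as a block (edgeR adjusted p = 0.0480). EIF2B2, a subunit of the exchange factor that reloads eIF2, had a log2 fold change of 0.19 ± 0.0607 (SE; edgeR adjusted p = 0.290). It passed only after a correction for GC content and length (edgeR adjusted p = 0.0400).
The kinases EIF2AK1, EIF2AK2 and EIF2AK4 had log2 fold changes of 0.03, -0.03 and 0.02.

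The lists of metabolic targets of ATF4 had medians near 0. Of the 11 enzymes of serine, one-carbon and other amino acid synthesis, 0 were called, and their median was 0.06, with values between -0.06 and 0.22. PYCR1 and GPT2, an enzyme of proline synthesis and an alanine transaminase, had log2 fold changes of 0.11 and 0.10, which ran from 0.03 to 0.21 and from 0.05 to 0.16 when 1 sample was left out, lowest without DMSO replicates 2 and 1 and highest without DMSO replicate 3. Of the 12 cytosolic aminoacyl-tRNA synthetases, 0 were called, 10 had a positive log2 fold change and the median was 0.03. SARS1 and AARS1, the seryl- and alanyl-tRNA synthetases, were furthest from 0, at 0.15 and 0.13.
The amino acid transporters went both ways. Of 9, 8 were tested and 0 called, with a median of 0.02. SLC7A5, the light chain of the leucine transporter LAT1, was at 44.8, 41.4 and 53.0 CPM with DMSO and at 55.5, 57.6 and 59.6 CPM with AZD7762. Its groups did not overlap. The fitted log2 difference was 0.31 ± 0.0845 (SE; edgeR adjusted p = 0.176). It depended on the DMSO samples, being 0.42 without replicate 3 (edgeR adjusted p = 0.00766) and 0.23 without replicate 2 (edgeR adjusted p = 0.602). SLC7A5 was not called when any of the other 4 samples was left out. With all 6 samples it was called without the filter on low counts (edgeR adjusted p = 0.0106) and with the replicate number as a block (edgeR adjusted p = 0.0144). A correction for GC content and length also gave a call (edgeR adjusted p = 0.0257), and the other alternatives with all 6 samples did not. SLC7A11, the cystine transporter subunit xCT, had a log2 fold change of -0.23 ± 0.0916 (SE; edgeR adjusted p = 0.447).

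Among the other targets of ATF4 and CHOP, 1 of 14 tested genes was called, where 0.708% of all genes tested were. In this list 10 genes had a negative log2 fold change and the median was -0.09. The called gene was BCL2L11, which encodes BIM, a BH3-only protein that promotes apoptosis and that CHOP can induce. It was at 92.0, 88.9 and 92.7 CPM with DMSO and at 70.1, 77.7 and 73.8 CPM with AZD7762, and each AZD7762 sample was lower than each DMSO sample. The fitted log2 difference was -0.30 ± 0.0603 (SE; edgeR adjusted p = 0.0391). The call was lost when any 1 sample was left out, with adjusted p in edgeR's test between 0.0516 and 0.211, while the log2 fold change stayed between -0.35 and -0.28. MIR4435-2HG covers 10.8% of its exons on the opposite strand. EIF4EBP1, an inhibitor of translation, had a log2 fold change of 0.20 ± 0.0740 (SE; edgeR adjusted p = 0.385), which was 0.11 without AZD7762 replicate 1 and 0.08 after a correction for GC content and length. TRIB3, a pseudokinase among these targets, was at 44.1 ± 5.07 and 44.4 ± 4.25 CPM, a log2 fold change of 0.01 with a 95% interval from -0.19 to 0.22. It does not stand for the list, whose 14 tested genes ran from -0.48 to 0.20, with 10 negative and 4 positive. TRIB3, FGF21, PPP1R15B and the other eIF2 kinases are named outside the rule for named genes, after their values were seen. FGF21 had 0 counts in every library.
The relatives of the bZIP factors had a median of -0.15, with 6 of 8 tested genes negative and 0 called. BATF2 and CEBPA had log2 fold changes of -0.29 and -0.16. The paralogues of the set had 0 of 5 tested genes called. SESN3 and ASNSD1 were furthest from 0, at -0.11 and 0.09, although other genes share 48.5% of the exon length of ASNSD1 on its own strand, and PPP1R15B, the constitutive counterpart of GADD34, had 0.03.
The IRE1 and ATF6 arms of the unfolded protein response, which raise chaperones of the endoplasmic reticulum, had 0 of 19 genes called, with 15 positive and a median of 0.07. SDF2L1 and EDEM1, which act in folding and in the removal of misfolded protein, had log2 fold changes of 0.30 ± 0.112 (SE; edgeR adjusted p = 0.396) and -0.23 ± 0.0639 (SE; edgeR adjusted p = 0.184).

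**Figure D4:**
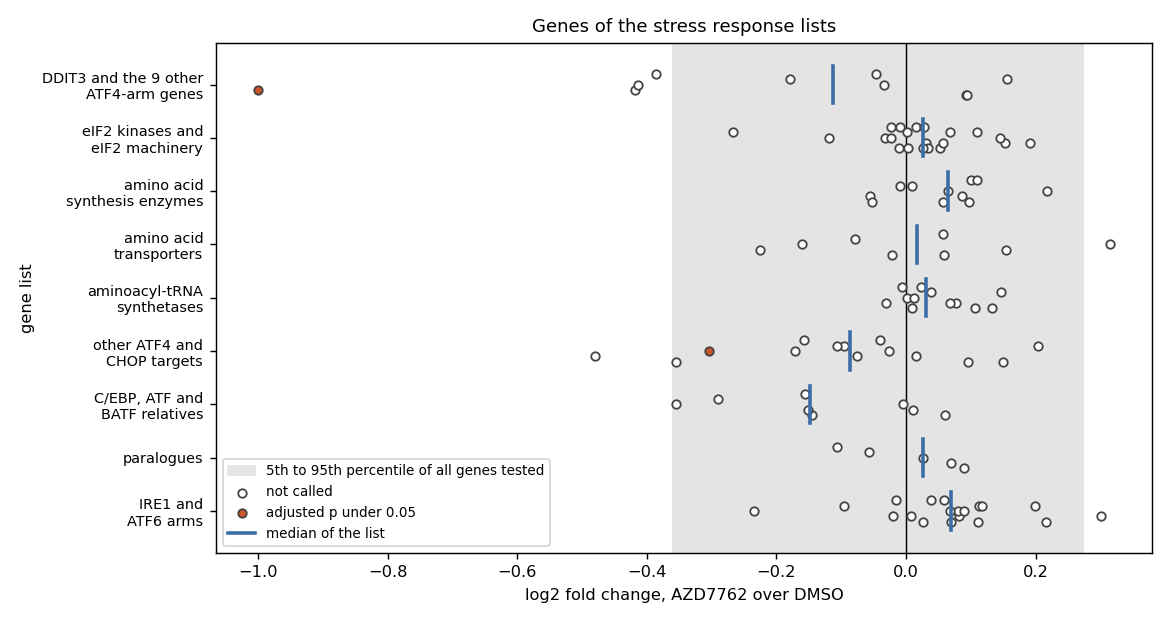
Log2 fold change of AZD7762 over DMSO for each tested gene of the 8 lists and of the 10 genes of the set (top), with 1 point per gene, called genes filled, the median of each list as a blue line and the 5th to 95th percentile of all genes tested in grey. DDIT3 and BCL2L11 are the 2 filled points, and the medians of the lists lie between -0.15 and 0.07, with that of the set at -0.11.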

How the data were processed

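RNA was measured in 6 samples, 3 per group, and grouped from the titles in the labels. The authors prepared polyadenylated RNA with either of 2 kits, checked reads with FastQC 0.10.1, trimmed them with cutadapt 1.18, aligned them to GRCh37 and counted genes with HTSeq-count 0.11.2. The aligner, strand setting and annotation release are not given in the sources used here. The deposited values are raw counts, without normalization, 1 file per sample. Symbols and exons came from GENCODE 44 lifted to GRCh37, which held 58646 of the identifiers. No pair of replicates was a duplicate: chi-square per gene was 4.92 to 9.53 within groups.

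Counts were tested with edgeR 4.0.16, run in R 4.3.3 beside limma 3.58.1, using filterByExpr, TMM factors, treatment as the only term, the quasi-likelihood test and Benjamini-Hochberg adjustment at 0.05, two-sided. Standard errors were derived from the log2 fold change and its F value, and 95% intervals cover 1 gene at a time. DESeq2 1.42.0 served as an alternative, and the procedure was tested on simulated data. The 10 genes, the lists and the tests were chosen with earlier results of these data known. Named were the 10 genes, in each list the called genes and the 2 furthest from 0 among genes averaging 1 or more in log2 CPM, and the 5 genes most like DDIT3 by Pearson's r. Each list is described by counts and medians, with no set test.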

Additional observations from a re-analysis of the deposited data

How the results depend on the processing

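DDIT3 had a log2 fold change from -1.05 to -0.96 when 1 sample was left out and the lowest of the 10 genes under each of the 15 alternatives. Of the 10 genes, 1 was called, against 2 without a filter on low counts (DDIT3 and ATF3). Since the set was selected on DDIT3 in these samples, this is no independent support. When 1 sample was left out, log2 fold changes ran from -0.0789 to 0.00176 for ATF4, changing sign without DMSO replicate 3, from -0.118 to 0.0198 for SESN2, changing sign without AZD7762 replicate 2, and from -0.0457 to 0.259 for CHAC1, changing sign without AZD7762 replicate 1. A correction for GC content and length also turned CHAC1 (-0.00662). Over all genes, 125 were called, against 330 when low counts were not filtered, 267 by the likelihood ratio test of edgeR, 257 after the GC and length correction and 378 with the replicate number as a block, and from 77 to 168 when 1 sample was left out, 77 being without AZD7762 replicate 1. Of the genes of the 8 lists, 1 was called, against 2 without the filter, 5 after that correction, 7 with the replicate block, and from 0 to 1 when 1 sample was left out. The cause was not tested. The GC and length correction was chosen after seeing the data, and it left genes without a known GC content, DDIT4 among them, as they were. In the labels, nothing but the number links same-numbered samples. Their deviations from the group means had correlations of 0.0533, 0.124 and 0.210, against -0.253 to 0.175 for the other pairs. DMSO replicates 2 and 3 correlated best with the AZD7762 sample of their own number, but DMSO replicate 1 with AZD7762 replicate 2 (0.175). These values do not settle whether the numbers pair the samples. Depth limits ASNS and DDIT4, with as few as 29 and 53 counts in a library.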
